A study of Mus musculus with 2 samples.

Results

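Heat shock proteins and chaperones were examined in mouse hippocampus by the annotation of an oligonucleotide array, taking every probe whose gene symbol starts as a member of the Hspa to Hspe, numbered Hsp, Dnaja, Dnajb, Dnajc or numbered Cct genes, together with Cryab. The rule reads symbols and no measured value, but the members were chosen with earlier results of these data known. It found 70 of 23473 probes, which stand for 68 of 16446 named genes, and 66 probes of 64 genes were measured, that is, lay above the blank spots in both channels of both arrays. Chaperones bind proteins that are unfolded and help them fold, refold or be degraded. HSP70 proteins hold short stretches of a client in a cycle driven by ATP, DnaJ (HSP40) proteins bring clients to them and start that cycle, HSP90 acts on clients at a later stage, chaperonins enclose whole proteins in a ring, and small heat shock proteins hold unfolded proteins without using ATP. In brain tissue the constitutive members serve synaptic vesicle recycling, tubulin and actin folding and secretion, and Cryab is known as a chaperone of glia, oligodendrocytes and astrocytes in particular.

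The groups were wild-type mice, AtrxdE2 mice, which carry an altered allele of Atrx, the gene of a chromatin remodeller, and AtrxdE2 mice treated with TMPyP4, which is a porphyrin ligand of G-quadruplex DNA. TMPyP4 was injected into the peritoneum (30 mg/kg, 2 times a week) over the period from postnatal day 30 to 90. RNA was pooled from 5 mice, with 1 pool for each mutant group, and each mutant pool (Cy3) was hybridised against wild type (Cy5) on 1 array, so that no value has a replicate error and no test was made. The labels give neither the age at tissue collection for the wild-type and untreated AtrxdE2 mice, nor a vehicle injection, nor how the allele is expressed among cell types, nor whether the wild-type RNA on both arrays was the same pool. Dyes were not swapped, so in a ratio over wild type the dye and the genotype cannot be told apart.

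A log2 ratio is the normalized signal of the mutant pool over that of wild type on one array, where 0 is no difference and -1 is a level at 50% of wild type. A gene is called higher or lower here at 1.5-fold, a log2 ratio of 0.585, which is a rule of size and not a test. Signals are in scanner units above the blank spots and compare channels of one probe only. The mutant channel was the brighter one on both arrays, with a median mutant over wild-type signal of 1.55 (AtrxdE2 array) and 2.24 (AtrxdE2+TMPyP4 array), and a gene with these raw ratios had a log2 ratio near 0. The median probe had signals of 42.2 in wild type and 64.6 in the mutant for AtrxdE2, and of 36.01 in wild type and 79.0 in the mutant for AtrxdE2+TMPyP4, with 84.5% and 81.1% of probes above background in both channels. With 1 array per comparison, precision is limited by the number of arrays.

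In AtrxdE2 against wild type, 3 of the 64 measured genes were lower by at least 1.5-fold, namely Cryab, Hspa8 and Cct5, and 0 were higher. Over all 13630 measured genes, 0.66% were lower and 0.44% higher by the same rule. The members' median log2 ratio was -0.05, with 24 above 0 and 40 below, against a median of -0.003 for all genes, of which 6723 lay above 0 and 6907 below. Centring each array on its median in place of the intensity-dependent curve moved bright genes upward on both arrays. Under it the members split 43 above 0 and 21 below with a median of 0.13, while all genes above the median signal had a median of 0.21, and 23 of the 64 members lay above that value. The authors' deposited table is also centred on its median, but without the offset used here to stabilise low signals. It had 23 members above 0 and 40 below, with a median of -0.095. The median raw mutant over wild-type signal was 1.54 among the brightest measured probes and 1.55 over all of them. Where median centring followed the offset, the direction of a small ratio in this comparison thus holds only relative to genes of like signal.

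In AtrxdE2+TMPyP4 against wild type, 1 of the 64 genes, Hspb3, was higher by at least 1.5-fold and 0 were lower. The shares over all genes were 0.902% higher and 0.462% lower. The members' median log2 ratio was 0.09, with 45 above 0 and 19 below, against 0.01 for all genes. Under median centring the split was 58 above and 6 below with a median of 0.55, beside a median of 0.43 for genes above the median signal, and 40 members lay above that. Without a replicate, it cannot be said whether a median this close to that of all genes differs from it.

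The difference between the arrays, AtrxdE2+TMPyP4 over AtrxdE2, had 3 members at least 1.5-fold higher and 0 lower, and the 3 were again Cryab, Hspa8 and Cct5. Over all genes 2.1% were higher and 1.14% lower. The members' median was 0.17, against 0.02 for all genes, with 46 members above 0 and 18 below, and under median centring 59 and 5 with a median of 0.41, beside 0.23 for genes above the median signal. This difference shares the AtrxdE2 array with the first comparison and both arrays share the wild-type group, so a ratio on the AtrxdE2 array enters the difference with its sign turned, and the values of each comparison are given side by side without reading one from the other.

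By a stricter rule of 2-fold, 0 members were called in any of these comparisons. The shares over all genes were then 0.022% higher and 0.00734% lower in AtrxdE2, 0.161% and 0.0293% in AtrxdE2+TMPyP4, and 0.213% and 0.103% for the difference.

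**Figure D1:**
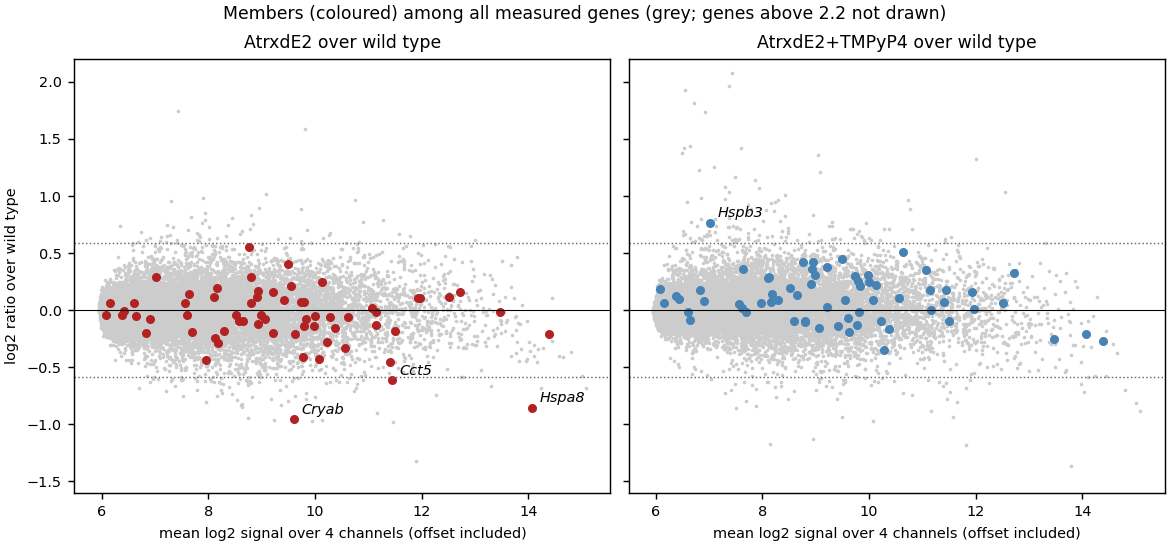
Log2 ratio over wild type (vertical) against mean log2 signal over the channels (horizontal) for AtrxdE2 (left) and AtrxdE2+TMPyP4 (right), with all measured genes in grey, members in colour and dotted lines at 1.5-fold. Cryab, Hspa8 and Cct5 lie below the lower line at left, at -0.95, -0.86 and -0.62, and Hspb3 is the member above the upper line at right, at 0.76.

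The spread between hybridisations is shown most nearly by the wild-type channels, since wild type was put on both arrays. After quantile normalization these differed with an SD of 0.27 log2 units over all measured probes and 0.34 over the 66 member probes, and the mutant (Cy3) channels with SDs of 0.41 and 0.43. Between the wild-type channels, 2 members were at least 1.5-fold higher on the AtrxdE2+TMPyP4 array (Dnajc12 and Hsp110) and 3 lower (Dnaja1, Dnajb9 and Dnajc15), beside 1.67% and 2.94% of all genes. More members passed 1.5-fold between the wild-type channels than in either ratio over wild type, and they were other genes than the called ones. The measures are unlike, since what both channels of a spot share enters a channel difference but not a ratio. The Cy3 channels of Dnaja1, Dnajb9 and Dnajc15 were lower too, at -0.60, -0.67 and -0.68. Those of Dnajc12 and Hsp110 were higher, at 1.04 and 0.89. These counts therefore do not give the error of a ratio. At 2-fold 0 members differed between the wild-type channels, beside 0.0954% of all genes higher and 0.462% lower.

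Cryab encodes alphaB-crystallin, a small heat shock protein that binds unfolded proteins and intermediate filaments. Its signals were 651 in wild type and 493 in AtrxdE2, and on the other array 617 in wild type and 1349 in AtrxdE2+TMPyP4. The AtrxdE2 pool was thus low against the typical ratio of the array, while the other pools did not stand apart. The log2 ratio over wild type was -0.95 in AtrxdE2 and -0.07 in AtrxdE2+TMPyP4, and the difference of the arrays was 0.88. Among the 500 genes nearest in signal, whose ratios had an SD of 0.24 in AtrxdE2, Cryab lay at percentile 0.0 in AtrxdE2 and 99.8 for the difference. The wild-type channels of the arrays differed by 0.14 for this gene, and the Cy3 channels set directly against each other by 1.04. In the authors' deposited table its log2 ratios were -1.05 and -0.04. Cryab stayed past 1.5-fold in AtrxdE2 and in the difference under every alternative background, scaling and filter tried, from -1.09 to -0.70 and from 0.88 to 1.17. Its ratio in AtrxdE2+TMPyP4 was 0.47 under median centring, close to the 0.43 of genes above the median signal.

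Hspa8 encodes the constitutive HSP70 protein HSC70, which among other tasks strips clathrin from vesicles and brings proteins to the lysosome. Its mean signals over both probes were 17324 in wild type and 13500.1 in AtrxdE2, and on the other array 15912 in wild type and 32278 in AtrxdE2+TMPyP4. As for Cryab, the AtrxdE2 channel was the low one. The log2 ratio over wild type was -0.86 in AtrxdE2 and -0.21 in AtrxdE2+TMPyP4, and the difference of the arrays was 0.65. Hspa8 is the called gene with more than 1 probe, and the probes can be compared. The first probe had -0.79 in AtrxdE2 and -0.03 in AtrxdE2+TMPyP4, and the brighter probe -0.93 and -0.39. Both probes were therefore low in AtrxdE2. They differed more in the wild-type channels, where the second array was higher by 0.65 for the first probe and lower, at -0.18, for the brighter one. With the brighter probe alone, the difference of the arrays was 0.53 and no longer reached 1.5-fold. In the authors' deposited table the mean ratios were -0.97 and -0.12. Hspa8 has processed copies in the mouse genome, and which transcripts each probe can bind was not analysed here.

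Cct5 encodes a subunit of the cytosolic chaperonin TRiC, the ring that folds actin and tubulin. Its signals were 2641 in wild type and 2616 in AtrxdE2, and on the other array 1738 in wild type and 4593 in AtrxdE2+TMPyP4. The log2 ratio over wild type was -0.62 in AtrxdE2, at percentile 0.6 of the 500 genes nearest in signal, and 0.17 in AtrxdE2+TMPyP4, and the difference of the arrays was 0.79. Cct5 is just inside the 1.5-fold line. Unlike Cryab, its wild-type channels differed by -0.37 between arrays, and the Cy3 channels set directly against each other differed by 0.40, under 1.5-fold. Median centring gave -0.37 in AtrxdE2, which also lost the call, and 1.14 for the difference. The authors' deposited table had -0.67 and 0.23.

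Hspb3 encodes a small heat shock protein best known from muscle and nerve. Its signals were 45.5 in wild type and 99.6 in AtrxdE2, and on the other array 27.6 in wild type and 162 in AtrxdE2+TMPyP4. The gene is dim, so that the offset added to stabilise low signals compresses its ratio. The log2 ratio was 0.29 in AtrxdE2 and 0.76 in AtrxdE2+TMPyP4, at percentile 99.8 of the genes nearest in signal, and the difference of the arrays was 0.47. The authors' deposited table, which has no such offset, had 0.48 and 1.38. With the local background in place of the blank spots, the ratio in AtrxdE2+TMPyP4 was 0.52, under 1.5-fold.

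**Figure D2:**
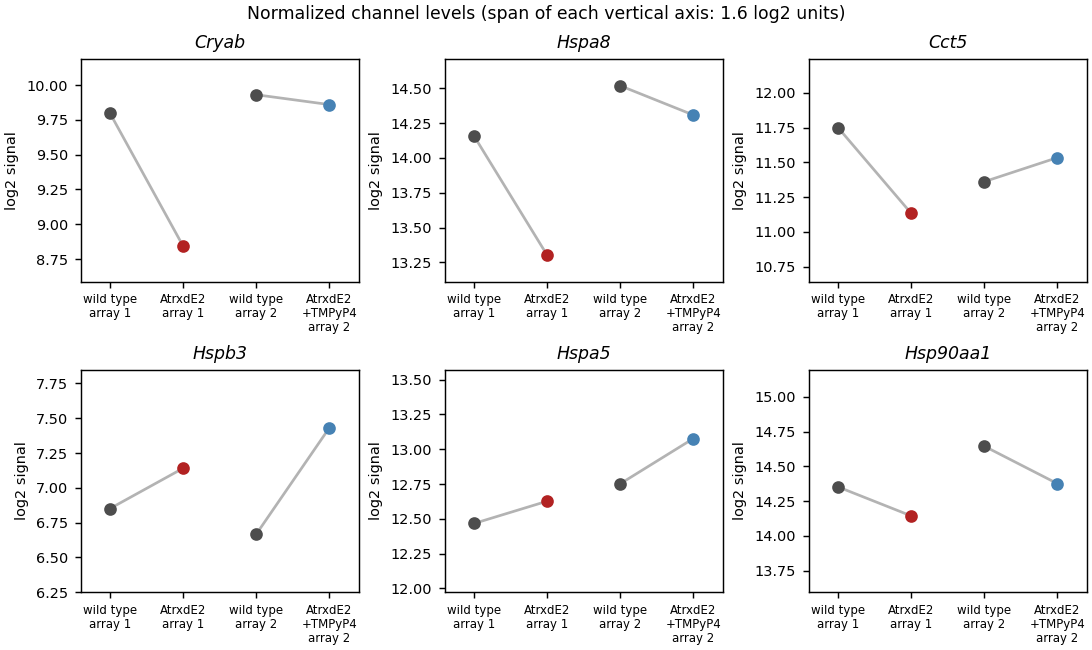
Normalized log2 level of 6 genes in each channel, with the AtrxdE2 array at left and the AtrxdE2+TMPyP4 array at right of each panel, a line joining the channels of one array, and every vertical axis spanning 1.6 log2 units. In Cryab the AtrxdE2 channel (8.84) lies below the others (9.80 to 9.93), in Cct5 the wild-type channel of the first array (11.75) is also the highest, and Hsp90aa1 falls from wild type to mutant by 0.21 and 0.27 on the arrays.

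The values of other cell types are needed beside these ratios, because a bulk ratio cannot tell fewer cells of a type from less RNA per cell. Oligodendrocyte markers were low in both mutant pools. Of the 12 measured of 14 listed, 12 lay below 0 in AtrxdE2 with a median of -0.49, 3 of them at least 1.5-fold lower, down to -1.32 for Mbp, and 11 lay below 0 in AtrxdE2+TMPyP4 with a median of -0.24, 4 of them at least 1.5-fold lower, down to -0.80 for Cnp1. Their summed signals were 17167 in wild type and 17077 in AtrxdE2, and on the other array 15691 in wild type and 25173 in AtrxdE2+TMPyP4. Astrocyte markers, of which 7 of 7 were measured, had medians of 0.01 and 0.11 with 0 called on either array. Their part in the ratio of Cryab, a gene of both cell types, was not tested.

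Markers of choroid plexus and meninges were higher in the AtrxdE2+TMPyP4 pool, and most of those of meninges were higher in AtrxdE2 as well. The 8 measured of 12 choroid plexus markers had medians of 0.02 in AtrxdE2 and 1.59 in AtrxdE2+TMPyP4, where all 8 were at least 1.5-fold higher, and summed signals of 151 (wild type) and 535 (AtrxdE2), and of 298 (wild type) and 62455 (AtrxdE2+TMPyP4). Ttr alone had a signal of 60792 in that pool. The ratio of Ttr in AtrxdE2 was 1.59, and its wild-type channels differed by 1.61. The 10 markers of meninges and fibroblasts had medians of 0.34 and 0.70, with 9 above 0 on either array. Of them, 3 were at least 1.5-fold higher in AtrxdE2 and 6 in AtrxdE2+TMPyP4. The 6 measured of 7 striatal markers had medians of -0.20 and -0.56, with summed signals of 5546 and 4932, and 2678 and 3803. The 7 measured of 8 hippocampal neuron markers had medians of 0.08 and -0.15, with summed signals of 2116 and 3649, and 1736 and 3594. A measured gene lies above the blank spots in every channel by definition, so their presence there is no test of the tissue. The part of these other tissues in the chaperone ratios was not tested.

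Among the 10 HSP70 genes, Hspa8 was the one called. Without it, the other 9 had a median of -0.05 in AtrxdE2, with 4 above 0, of 0.23 in AtrxdE2+TMPyP4, with 9 above 0, and of 0.23 for the difference, with 8 above 0. Under median centring 8 of the 9 lay above 0 in AtrxdE2+TMPyP4 and 8 above the median of genes of like brightness, so the direction was the same on that scale for most. Hspa5, the HSP70 protein of the endoplasmic reticulum lumen also known as BiP, had signals of 4399.7 in wild type and 7367 in AtrxdE2, and on the other array 4526 in wild type and 13457 in AtrxdE2+TMPyP4, with ratios of 0.16 and 0.33. Neither reached 1.5-fold. Hspa9a (now Hspa9), the HSP70 of the mitochondrial matrix, had signals of 805 and 1140.0, and 556 and 1607, with ratios of -0.14 and 0.31 and a difference of 0.44, while its wild-type channels differed by -0.28.

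The HSP110 proteins exchange the nucleotide of HSP70 and hold clients themselves. Hspa4 had ratios of -0.08 and 0.21, with wild-type channels that differed by -0.52. The probe annotated Hsp110, a name that the RefSeq table lists for more than 1 gene of this group, had -0.05 and 0.25, with wild-type channels that differed by 0.59. Hspa4l had 0.08 and 0.30, with wild-type channels that differed by 0.39. All 3 differed by less between mutant and wild type than their wild-type channels did between arrays. Their Cy3 channels moved the same way between arrays, by -0.27, 0.89 and 0.62. Hspa2, known from the testis, had 0.12 and 0.23, Hspa12a -0.10 and 0.13, and Hspa14, which works at the ribosome, -0.20 and 0.03. Hspa1l was dim, with signals between 7.71 and 25.7, and had 0.07 and 0.06. No probe carried the symbols Hspa1a or Hspa1b, the inducible HSP70 genes, or Hspe1, so no values are given under these names.

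HSP90 proteins take over clients such as kinases and steroid receptors from HSP70. All 3 genes that the symbol rule took were measured and none was called. Hsp90aa1, the stress-inducible cytosolic form, had signals of 17174 in wild type and 21449 in AtrxdE2, and on the other array 16787 in wild type and 33556 in AtrxdE2+TMPyP4, with ratios of -0.21 and -0.27. Hsp90ab1, the constitutive cytosolic form, had 9281 and 13468, and 8030.4 and 16027, with ratios of -0.02 and -0.25. Hsp90b1, the form of the endoplasmic reticulum also known as GRP94, had 4214 and 6867, and 3961 and 9764, with ratios of 0.12 and 0.06. Under median centring all 3 lay above 0 in AtrxdE2+TMPyP4, with 1 of 3 above the median of genes above the median signal, so only the position relative to bright genes was kept.

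Of the 8 small heat shock genes, 7 were measured, and in AtrxdE2 Cryab was the lowest and Hspb3 the highest of them. Hspb1 encodes the small heat shock protein HSP25, which binds actin and rises in stressed glia. It had signals of 357 in wild type and 633 in AtrxdE2, and on the other array 347 in wild type and 1053 in AtrxdE2+TMPyP4, with ratios of 0.16 and 0.38. Its value depended on the background, and with the local background its ratio in AtrxdE2 was -0.71. Hspb2 is the gene next to Cryab in the RefSeq table, and had -0.04 in AtrxdE2 and 0.12 in AtrxdE2+TMPyP4 at signals of 13.0 to 39.0. At such signals the offset compresses the ratio, and the authors' deposited table, without that offset, had -0.16 and 0.41. Hspb2 was thus too dim to show whether the neighbours shared the low ratio of Cryab. Hspb6 had -0.08 and -0.16, Hspb7 -0.06 and -0.35, and Hspb8, a partner of the co-chaperone Bag3 in clearing misfolded protein, 0.12 and 0.28.

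The TRiC ring is built from different Cct subunits, of which 6 were measured beside Hspd1, the HSP60 chaperonin of mitochondria. All 6 Cct genes lay below 0 in AtrxdE2, with a median of -0.25. In AtrxdE2+TMPyP4 5 of the 6 lay above 0, with a median of 0.09, and for the difference of the arrays 6 of 6 lay above 0, with a median of 0.37. Cct8 had signals of 2232 in wild type and 2479 in AtrxdE2, and on the other array 1899 in wild type and 4674 in AtrxdE2+TMPyP4, with ratios of -0.46 and 0.07. Cct7 had 999 and 1229, and 1213 and 3051, with ratios of -0.33 and 0.11, but its wild-type channels differed by 0.49. Cct2 had -0.13 and 0.17, Cct4 -0.18 and -0.09, and Cct3, with -0.02 and 0.00, lay at 0 on both arrays. Hspd1 had signals of 2947 and 4823, and 2696 and 6375, with ratios of 0.11 and 0.01.

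The direction of the TRiC subunits in AtrxdE2 depended on the scaling. Under the authors' deposited table, plain subtraction and the local background 0 of 6 lay above 0, and under median centring 3 of 6 did, but 5 of 6 then lay below the median of genes above the median signal. For the difference of the arrays 6 of 6 lay above 0 under each alternative, with the exception of the Cy3 channels set directly against each other, where 5 of 6 did with a median of 0.41. The subunits share the arrays and may vary together, so 6 genes are not 6 measurements.

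**Figure D3:**
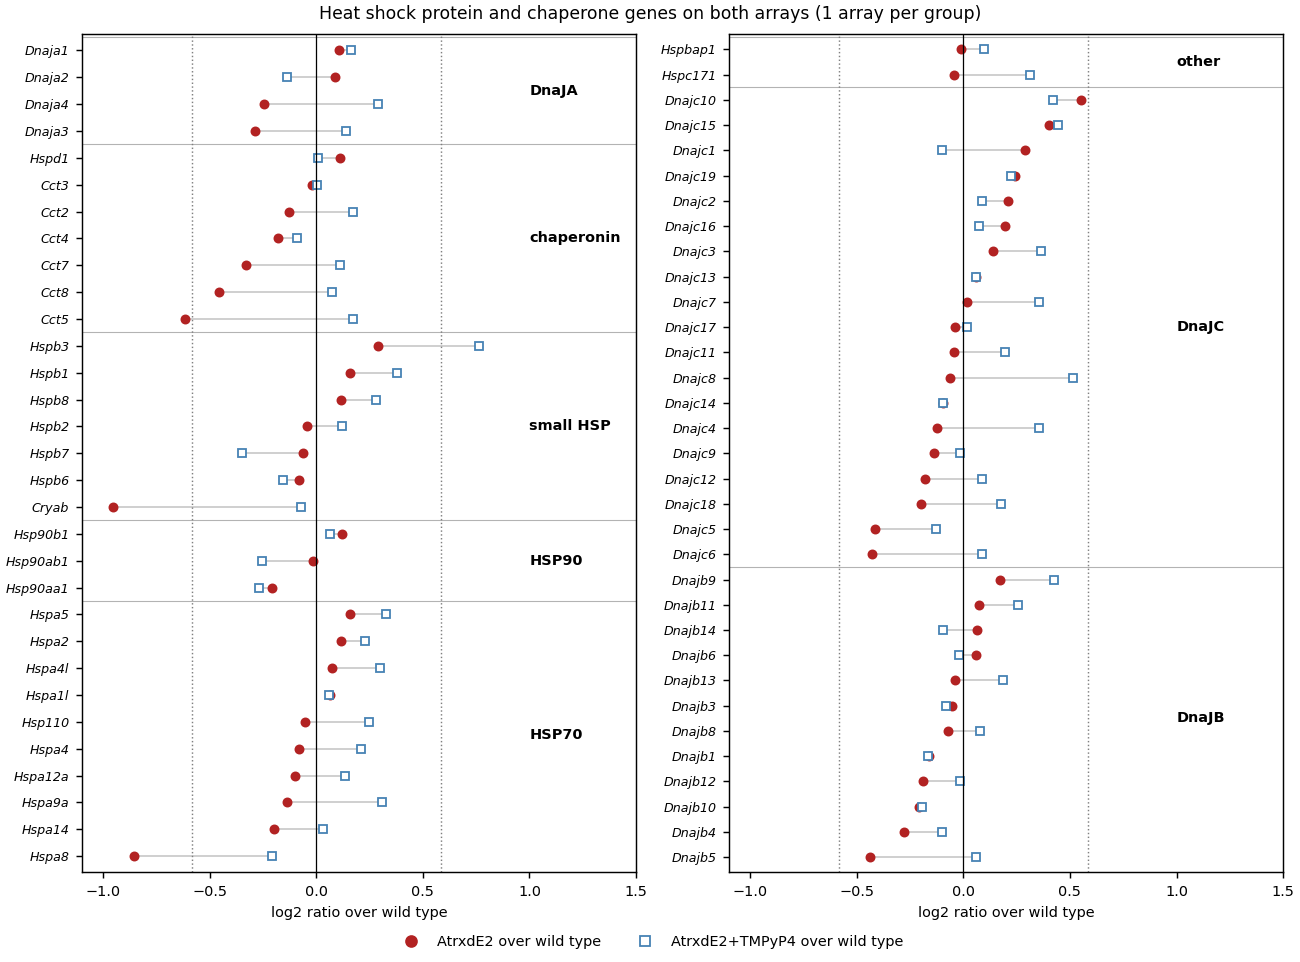
Log2 ratio over wild type (horizontal) of the 64 measured members by family (rows), with filled circles for AtrxdE2 and open squares for AtrxdE2+TMPyP4, and dotted lines at 1.5-fold. The 6 Cct rows have every circle at or left of 0 and the square further right. The square lies right of the circle in 46 of the 64 members. Most DnaJ rows, and those of Cct2, Cct3 and Cct4, lie between -0.3 and 0.5 on both arrays.

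DnaJ proteins have a J domain that starts the ATPase of HSP70, and are sorted into classes A, B and C by their other domains. All 35 measured members of these classes had medians of -0.05 in AtrxdE2, 0.09 in AtrxdE2+TMPyP4 and 0.15 for the difference, and none was called in any of these. In class A, Dnaja1, the main cytosolic partner of HSC70, had signals of 3676 in wild type and 5955 in AtrxdE2, and on the other array 1949 in wild type and 5121 in AtrxdE2+TMPyP4, with ratios of 0.10 and 0.16. Its wild-type channels differed by -0.68 and its Cy3 channels by -0.60, so both moved alike between the arrays. Dnaja3, the mitochondrial partner, had -0.29 and 0.14, Dnaja4 -0.25 and 0.29 (a difference of the arrays of 0.54, the highest of the class), and Dnaja2 0.09 and -0.14.

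In class B, Dnajb1, the heat-inducible HSP40, had signals of 952 and 1323, and 1008 and 2072, with ratios of -0.16 and -0.17. Dnajb5 had the lowest ratio of the class in AtrxdE2, -0.44, with 0.06 in AtrxdE2+TMPyP4 and the highest difference of the arrays in the class, 0.50. Dnajb9, an endoplasmic reticulum partner of BiP that promotes the degradation of misfolded clients, had signals of 421 in wild type and 753 in AtrxdE2, and on the other array 183 in wild type and 579 in AtrxdE2+TMPyP4. Its ratios of 0.17 and 0.43 stand beside wild-type channels that differed by -0.82, and its Cy3 channels set directly against each other gave -0.67, so the sign of the difference of the arrays, 0.26, rests on the wild-type channel. Dnajb10 (now Dnajb2), Dnajb4 and Dnajb14 had -0.21 and -0.19, -0.28 and -0.10, and 0.07 and -0.10. Dnajb13 was dim, with signals of 9.69 in wild type and 13.8 in AtrxdE2, and on the other array 1.998 in wild type and 18.9 in AtrxdE2+TMPyP4. Its ratios of -0.04 and 0.19 are compressed by the offset, as for Hspb3. The authors' deposited table, without that offset, had -0.14 and 2.07, and the latter rests on a wild-type signal close to background. With the local background or median centring, Dnajb13 did not reach 1.5-fold in AtrxdE2+TMPyP4. The other measured genes of the class lay between -0.19 (Dnajb12) and 0.07 (Dnajb11) in AtrxdE2, and between -0.08 (Dnajb3) and 0.26 (Dnajb11) in AtrxdE2+TMPyP4.

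Class C holds members tied to particular compartments. Dnajc5, the cysteine string protein of synaptic vesicles, had signals of 579.8 in wild type and 666 in AtrxdE2, and on the other array 734 in wild type and 1544 in AtrxdE2+TMPyP4, with ratios of -0.41 and -0.13 and wild-type channels that differed by 0.53. Dnajc6, auxilin, which directs HSC70 to clathrin-coated vesicles, had 949.6 and 1086, and 651 and 1603, with ratios of -0.43 and 0.09. Both were on the low side in AtrxdE2 but did not reach 1.5-fold. This was not particular to them, as Dnajb5 had -0.44, while Dnaja1, another partner of HSC70, had 0.10. Of the 35 DnaJ genes, 20 lay below 0 in AtrxdE2 and 15 above. Dnajc8, linked to splicing, had -0.06 and 0.51, and the highest difference of the arrays in the class, 0.577, just outside the 1.5-fold line. Dnajc10, a reductase of the endoplasmic reticulum, had the highest ratio of any member in AtrxdE2, 0.55, and 0.42 in AtrxdE2+TMPyP4, with signals of 239 and 582, and 212 and 666. It too was just outside the line in AtrxdE2. Dnajc15, of the mitochondrial inner membrane, had signals of 573 and 1211, and 291 and 930.2, with ratios of 0.40 and 0.44 and wild-type channels that differed by -0.68. Dnajc1, a J protein of the endoplasmic reticulum membrane, had 0.29 and -0.10 and the lowest difference of the arrays in the class, -0.39. The other measured genes of the class lay between -0.20 (Dnajc18) and 0.24 (Dnajc19) in AtrxdE2, and between -0.10 (Dnajc14) and 0.36 (Dnajc3) in AtrxdE2+TMPyP4. Outside the families, the symbol rule took Hspbap1, with -0.01 and 0.09, and Hspc171 (now Tmem208), with -0.04 and 0.31.

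By compartment, a grouping made after the values were seen, 7 members work in or face the lumen of the endoplasmic reticulum (Hspa5, Hsp90b1, Dnajb9, Dnajb11, Dnajc1, Dnajc3 and Dnajc10). All 7 lay above 0 in AtrxdE2 with a median of 0.16, and 6 of 7 in AtrxdE2+TMPyP4 with a median of 0.33, but none reached 1.5-fold. With the local background 6 of 7 lay above 0 in AtrxdE2, and under median centring all 7 lay above the median of genes above the median signal. Over all measured genes 49.3% and 52.8% lay above 0 on the arrays. Of the 12 listed genes of endoplasmic reticulum folding outside the symbol rule, 5 and 7 lay above 0, with medians of -0.05 and 0.14. As the grouping followed the values, its split is a description only. The 6 mitochondrial members (Hspa9a, Hspd1, Dnaja3, Dnajc11, Dnajc15 and Dnajc19) had medians of 0.03 and 0.21, with 3 and 6 above 0.

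The promoters show which stress elements these genes carry. Of the 68 members, 53 had an entry in the RefSeq table of promoters (assembly GRCm38.p6), each running from 250 bases before to 50 after the start. Cryab, Hspa8, Hsp90aa1 and Hsp90ab1 were among those without an entry, so no element was searched in them. The ER stress element, which ATF6 and NF-Y bind, was searched on both strands as CCAAT, then 9 bases of any kind, then CCACG, and 3 of the 53 genes held it, Hspa5, Dnajc3 and Hsp90b1, beside 0.137% of the 27025 genes of the table (0.119% of 32851 promoters). They are shown, with Hspd1, to let the elements be read beside the ratios. Capitals mark the elements, and all run 5′ to 3′ along the gene. Hspa5 is at chr2:34771840-34772139 (plus strand), Dnajc3 at chr14:118937682-118937981 (plus strand), Hsp90b1 at chr10:86705395-86705694 (minus strand) and Hspd1 at chr1:55087883-55088182 (minus strand).
Hspa5: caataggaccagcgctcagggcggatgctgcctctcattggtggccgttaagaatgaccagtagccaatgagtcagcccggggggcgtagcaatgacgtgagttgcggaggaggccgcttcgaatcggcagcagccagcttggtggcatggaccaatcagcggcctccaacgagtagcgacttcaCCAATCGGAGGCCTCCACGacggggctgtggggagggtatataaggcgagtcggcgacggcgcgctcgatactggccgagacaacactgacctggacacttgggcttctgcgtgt
Dnajc3: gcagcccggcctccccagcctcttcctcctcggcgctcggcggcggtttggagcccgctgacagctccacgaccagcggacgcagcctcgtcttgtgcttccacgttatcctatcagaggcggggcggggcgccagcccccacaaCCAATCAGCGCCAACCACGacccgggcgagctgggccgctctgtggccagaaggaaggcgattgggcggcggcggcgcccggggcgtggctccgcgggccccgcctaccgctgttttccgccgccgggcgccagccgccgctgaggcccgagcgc
Hsp90b1: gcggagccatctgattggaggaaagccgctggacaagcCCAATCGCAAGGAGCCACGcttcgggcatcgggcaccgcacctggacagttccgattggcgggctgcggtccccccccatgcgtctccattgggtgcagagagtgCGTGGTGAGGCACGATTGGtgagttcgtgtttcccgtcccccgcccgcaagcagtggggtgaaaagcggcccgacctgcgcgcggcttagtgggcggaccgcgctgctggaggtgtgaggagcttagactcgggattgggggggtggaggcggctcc
Hspd1: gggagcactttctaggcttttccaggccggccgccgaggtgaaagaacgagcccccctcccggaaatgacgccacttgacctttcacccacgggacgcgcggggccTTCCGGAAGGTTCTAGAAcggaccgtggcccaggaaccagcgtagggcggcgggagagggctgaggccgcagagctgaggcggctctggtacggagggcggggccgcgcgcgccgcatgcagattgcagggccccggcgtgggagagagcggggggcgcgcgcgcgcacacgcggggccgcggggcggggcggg
Hsp90b1 holds the element 2 times, the other one on the opposite strand, and the capitals in Hspd1 mark heat shock elements that overlap.

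The 3 genes with the ER stress element had ratios of 0.16, 0.14 and 0.12 in AtrxdE2 for Hspa5, Dnajc3 and Hsp90b1, and of 0.33, 0.36 and 0.06 in AtrxdE2+TMPyP4. None reached 1.5-fold. The heat shock element, which heat shock factor binds, was searched on both strands as 3 units that alternate between GAA and TTC, each 2 bases of any kind apart, and Hspd1 and Dnajb6 held it (2 of 53 genes, beside 0.662% of all genes). Hspd1 had 0.11 and 0.01 and Dnajb6 0.06 and -0.02. The shorter GAANNTTC, which the full element contains, was held by 10 of the 53 genes beside 9.04% of all genes. Of these, 9 were measured, with a median of 0.10 in AtrxdE2 and 0.17 in AtrxdE2+TMPyP4, beside -0.04 and 0.08 for the 41 without it. A match describes letters in this window, and its absence says nothing of a factor.

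**Figure D4:**
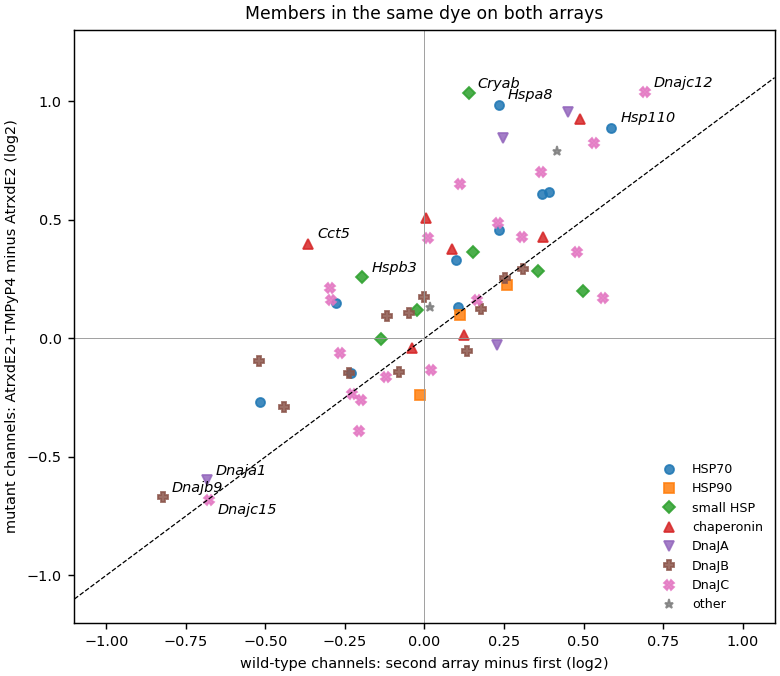
Log2 difference between the AtrxdE2+TMPyP4 and AtrxdE2 pools in the Cy3 channels (vertical) against that between the wild-type channels of the same arrays (horizontal), with 1 point per measured member, shaped by family, and a dashed line where both are equal. Cryab and Hspa8 lie far above the line at 1.04 and 0.98, while Dnajb9 (-0.82 and -0.67) lies low in both channels.

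Chaperone regulators and co-chaperones outside the symbol rule were taken from a list of 64 genes, of which 56 were measured. In AtrxdE2 26 lay above 0 and 30 below with a median of -0.01 and 0 called, and in AtrxdE2+TMPyP4 36 above and 20 below with a median of 0.04 and 0 called. For the difference of the arrays, 2 of 56 were at least 1.5-fold higher and 0 lower. Both are HSP90 co-chaperones. Fkbp5, a glucocorticoid-responsive one, had signals of 84.6 in wild type and 75.3 in AtrxdE2, and on the other array 55.2 in wild type and 179 in AtrxdE2+TMPyP4, with ratios of -0.44 and 0.38 and a difference of 0.82. Chordc1 had 293 in wild type and 392 in AtrxdE2, and on the other array 204 in wild type and 726 in AtrxdE2+TMPyP4, with ratios of -0.19 and 0.57 and a difference of 0.76, which was 0.50, under 1.5-fold, between the Cy3 channels.

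Heat shock factor genes did not reach 1.5-fold. Hsf1, the main heat shock factor, had ratios of 0.20 in AtrxdE2 and -0.15 in AtrxdE2+TMPyP4, and Hsf2 had 0.19 and 0.09. Stip1, which joins HSP70 to HSP90, had -0.01 and 0.46, and Trap1, the mitochondrial HSP90, -0.03 and 0.53. The 16 measured genes listed as HSP90 co-chaperones, among them Trap1, which is itself an HSP90, had medians of -0.02 and 0.19. Those of the 12 genes of endoplasmic reticulum folding were -0.05 and 0.14.

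The 4 members that were not measured in both channels of both arrays were Cct6b, Dnajc5b, Dnajc5g and Hspb9, and no log2 ratio is given for them. Dnajc5b was above background in 0 of the 4 channels. Dnajc5g was above background on the AtrxdE2 array alone, with signals of 6.65 in wild type and 7.07 in AtrxdE2. Cct6b was above background in all channels but AtrxdE2, with signals of 6.67 and 6.13, and 2.46 and 9.07. Its AtrxdE2 channel was taken at the higher of its own value and the lowest signal that counts as above background. That gave a level 1.06-fold lower than in wild type. Spot noise was left out of this figure, and the blank spots of the AtrxdE2 channel had an SD of 3.30. No difference is therefore established.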

How the data were processed

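Both arrays were two-colour, with total RNA of hippocampus amplified and dye-coupled, per the labels. The deposited scanner tables hold the median intensity of each spot, merged from 3 scanner gains per the file headers, with a local background intensity. The authors' value table holds log2 ratios of mutant over wild type, per the labels. Of the software and steps behind them, the sources used here give nothing. From the values, 99.995% and 99.9947% of the deposited log2 ratios on the arrays lie within 0.01 of the ratio Cy3 over Cy5 of blank-subtracted signals, less a constant per array that puts the median at 0.

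The blank level was a trimmed mean of the blank spots, with 0.05 of them dropped at either end. Background was corrected with normexp (offset 50) and ratios by loess with control spots at weight 0 (limma 3.58.1, R 4.3.3). A probe was measured if not marked bad and above the blank mean plus 2 SD in all channels. Probes of a gene were averaged. The normalization was tested on simulated data. With 1 array per group no p-value was computed. Members, families, lists and markers were chosen with earlier results of these data known. Named genes were well-known members, every called member, and the ends of each family; a few others are given by role. Of the 68 symbols, 64 are current, 3 matched through a synonym and 1 was ambiguous. Alternatives were the authors' table, plain subtraction, the local background, median centring, no background filter, a brightness filter, the brightest probe, 2-fold, current symbols, and the Cy3 channels alone.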

Additional observations from a re-analysis of the deposited data

Results flagged for a closer look

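Cct5 lay on opposite sides of wild type on the arrays, with -0.62 in AtrxdE2 and 0.17 in AtrxdE2+TMPyP4, a difference of 0.79 log2 units. The difference was not tested, since each mutant group is 1 pool.

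Hspb9, a small heat shock gene known from the testis, was above background in the AtrxdE2 channel alone, with a signal of 10.6 beside 2.32 in wild type on that array, and 0.76 and 5.71 on the other. The AtrxdE2 level was 1.08-fold higher than that of wild type taken at the lowest signal that counts as above background. Spot noise was left out of this figure, and the blank spots of the AtrxdE2 channel had an SD of 3.30. No difference is therefore established.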

How the results depend on the processing

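No paired analysis was possible because each group has 1 array, and for the same reason no replicate could be left out. Under the authors' table, plain subtraction, the local background and median centring, in that order, the members at least 1.5-fold higher in AtrxdE2 were 1, 1, 1 and 2 (0 as reported), beside 4.11%, 3.87%, 0.8% and 2.74% of all genes. In AtrxdE2+TMPyP4 they were 2, 2, 8 and 30 (1 as reported), beside 5.22%, 4.61%, 6.29% and 15.3% of all genes. In the difference of the arrays they were 11, 8, 16 and 16 (3 as reported), beside 10.2%, 9.93%, 8.73% and 7.52% of all genes. The local background gave 7 lower in AtrxdE2 (3 as reported), beside 1.47% of all genes, and 1 lower in the difference (0 as reported), beside 1.72%. The Cy3 channels alone gave 13 higher and 3 lower in the difference, beside 6.33% and 6.52% of all genes. Among genes above the median signal 0 were higher in AtrxdE2+TMPyP4, as Hspb3 is not among them. At 2-fold 0 members were called in any comparison or between the wild-type channels. Median centring left 1 member higher between the wild-type channels (2 as reported), beside 0.961% of all genes. The members' medians under median centring were 0.13, 0.55 and 0.41. Of 371 values of 17 named members under the alternatives, 331 stayed within a limit, 40 moved past it and 0 turned a called value to the other sign. The limit was the SD of the wild-type channel difference among the 500 genes nearest in signal. A call could be lost within that limit, as for Cct5 in AtrxdE2 under median centring. The filters and the brightest probe could not change a gene with 1 probe, so these counts do not measure how firm the calls are. Dim genes such as Hspb3, Dnajb13 and Hspa1l are limited by their signal over background.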
